A study of Mus musculus with 8 samples.

Results

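The mRNAs described here encode proteins of the small ribosomal subunit. A read was taken when its tail call passed the quality filter, its transcript was of the mRNA class, it was counted once per gene, and the gene it was aligned to was 1 of 27 listed genes: Rpsa, Rps2, Rps3, Rps3a1, Rps4x, Rps6, Rps7, Rps9, Rps10, Rps12, Rps13, Rps14, Rps15, Rps15a, Rps16, Rps18, Rps19, Rps20, Rps21, Rps23, Rps24, Rps25, Rps26, Rps27, Rps27l, Rps28 and Rps29. All 27 had reads, of 13120 genes in all, and they held 177311 of 1926010 reads. The cells were P19, an undifferentiated mouse embryonal carcinoma line of wild-type genotype. They were given MHY1485, a small molecule described as an activator of the kinase mTOR, at 10 µM or its solvent DMSO, for 24 h or 48 h with medium and compound renewed every 24 h, and each of the 4 groups had 2 libraries. Poly(A)-selected RNA was read directly through nanopores, so each read is 1 molecule with its own tail length in nucleotides (nt). All groups come from the same line, and nothing in the labels gives the passage or clone.

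Each protein of the small subunit is needed in about equal number, because it sits at a fixed place beside the ribosomal RNA that decodes the message. The mRNAs of nearly all of them begin with a C followed by a run of pyrimidines, the 5′ terminal oligopyrimidine or TOP motif, which makes their translation depend on mTOR. Their poly(A) tails are bound by poly(A)-binding protein, and the protein LARP1 binds both the TOP motif and poly(A) and is known to protect these messages when mTOR is off.

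The starts are shown because the drug was chosen to act on mTOR. Of the 27 genes, 24 matched an entry in RefSeq (GRCm38.p6), without Rps14, Rps20 and Rps29. A C followed by at least 4 further C or T, on the sense strand and beginning within 10 bases of the annotated start, was found in 14 of these 24, and in 29.1% of 27025 genes. Each line gives 10 bases before to 20 bases after the start, 5′ to 3′, with the tract in capitals.
Rps6 (chr4:86857348-86857377, minus strand): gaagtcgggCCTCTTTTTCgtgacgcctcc
Rps9 (chr7:3704031-3704060, plus strand): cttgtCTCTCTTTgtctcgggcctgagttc
Rps18 (chr17:33955646-33955675, minus strand): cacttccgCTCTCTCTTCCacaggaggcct
Rps21 (chr2:180257369-180257398, plus strand): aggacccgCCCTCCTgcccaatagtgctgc
Rps24 (chr14:24490668-24490697, plus strand): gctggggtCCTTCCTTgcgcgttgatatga
Rps27 (chr3:90213629-90213658, minus strand): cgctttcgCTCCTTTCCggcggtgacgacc
Rps16 (chr7:28350679-28350708, plus strand): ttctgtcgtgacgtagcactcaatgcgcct
Rpsa (chr9:120127756-120127785, plus strand): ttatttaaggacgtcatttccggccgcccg
Rps6, the substrate of the S6 kinases downstream of mTOR, held a tract of 10 nt. Rps18 held 11 nt and the longest, in Rps10, was 13 nt. Rps16 and Rpsa had no such tract within this window of the RefSeq start, which says only that these letters are not there.

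The 3′ ends are shown because tails start there. In 26 members searched (all but Rps14), the 30 bases before the median end of the aligned reads held the polyadenylation signal AATAAA in 25 and its variant ATTAAA in 1, Rps4x. At the ends of 2469 transcripts with at least 100 reads, either hexamer on the sense strand was found in 82.3%. The lines below give mRNAs with some of the shortest (Rps19, Rps3, Rps10) and longest (Rps4x, Rps21, Rps7) tails, from GENCODE vM21 transcripts on GRCm38, with the hexamer in capitals.
Rps19 (chr7:24889774-24889803, plus strand): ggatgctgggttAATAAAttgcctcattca
Rps3 (chr7:99478887-99478916, minus strand): ataaagacatttAATAAAatcttgaacaaa
Rps10 (chr17:27630424-27630453, minus strand): atgttgtattgAATAAActttaaagaaaaa
Rps4x (chrX:102184942-102184971, minus strand): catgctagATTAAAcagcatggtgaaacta
Rps21 (chr2:180258410-180258439, plus strand): tacaAATAAAagttttaagtacctgtgaca
Rps7 (chr12:28631083-28631112, minus strand): aaatgactgAATAAAgtgtcattcatagta
The reads did not always end where the most-read annotated transcript ends. They stopped a median of 229 nt before the annotated end of Rps7, 459 nt before that of Rps16, 991 nt before that of Rps3 and 4692 nt before that of Rps15a, so the annotated 3′ UTR of these mRNAs is longer than the one read here.

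The libraries held 178359 to 316531 reads, and 8.49% to 9.71% of them came from the 27 genes. The median tail over all reads was 96.76 to 102.50 nt in 7 libraries and 92.37 nt in MHY library 24 at 48 h, which stands apart. The library numbers in the table (21 and 23 at 24 h, 24 and 25 at 48 h) could not be matched to the replicate numbers of the labels, and p-values measure the spread between these libraries. Of 12 markers of pluripotent embryonal carcinoma cells, 11 had reads, led by Pou5f1, with 36.5 to 42.1 summed reads per 10000 in each library and none at 0 but Zfp42. The summed level of 9 neural markers was 2.34 to 4.09 per 10000, mostly Stmn2, with Neurog1 and Dcx among those at 0. It was 0.168 to 2.50 for 6 mesoderm or endoderm markers, mostly T, with Sox17 at 0, and 0 to 0.222 for 4 fibroblast markers.

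In read number, the 27 mRNAs ran from 1.66 to 65.1 reads per 10000 (means of 8 libraries), with a median of 37.3. Direct RNA gives 1 read per molecule whatever its length, so these levels are not divided by length. As the aligner split the reads, the highest were Rps12, a protein of the head of the subunit, with 65.1 ± 3.2 (SD, n = 8), Rpsa, the laminin-receptor homologue, with 52.7 ± 4.2, and Rps20, a head protein, with 47.8 ± 3.9. The lowest were Rps2, which lines the mRNA entry channel, with 1.66 ± 0.24, Rps27 with 7.92 ± 1.77 and Rps7, which also binds Mdm2, with 8.74 ± 1.00. Rps27l, a paralogue of Rps27 that is induced by p53, had 9.02 ± 0.92. Levels differed far more between genes (SD 15.05) than between libraries of a group (median SD 1.77 per 10000), and Spearman's rho between libraries over the 27 genes was 0.88 to 0.99 for the 28 library pairs.

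Tail length differed between the members. The mean of the 8 library medians was lowest for Rps14, 78.3 ± 3.9 nt (SD, n = 8), Rps19, 82.5 ± 7.4 nt, and Rps3, 84.2 ± 5.5 nt. Rps14 is a platform protein and lies in the human region deleted in 5q- syndrome, and Rps19 is the gene most often mutated in Diamond-Blackfan anaemia. At the other end were Rps7, 110.9 ± 4.9 nt, Rps21, 103.8 ± 4.6 nt, and Rps4x, the X-linked copy of RPS4, 102.5 ± 4.8 nt.

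The library values show the separation. In DMSO libraries 21 and 23, MHY libraries 21 and 23, DMSO libraries 24 and 25 and MHY libraries 24 and 25, the median tail of Rps14 was 80.3, 81.4, 80.8, 82.2, 76.3, 77.0, 70.3 and 78.1 nt. In the same order that of Rps21 was 109.7, 105.6, 104.9, 106.0, 102.8, 103.3, 93.8 and 104.4 nt. The longest median of Rps14 was thus below the shortest of Rps21. The rank of the members was shared between libraries, with a Spearman's rho of 0.63 to 0.91 over the 27 genes (median of the 28 library pairs 0.82), as a description of libraries that share one cell line.

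With 8 libraries and 26 pairs, a lone pair of neighbours cannot pass the adjusted test whatever its values. The neighbours and their order were taken from the means of the same 8 libraries, so the p-values below describe that order and do not test it. Of the 26 pairs of neighbours, only Rps28 and Rps23 had the same order in 8 of 8 libraries, with 86.0 and 89.0 nt (exact two-sided sign-flip permutation test, p = 0.0078, the smallest that 8 libraries allow; adjusted p = 0.20 over 26 pairs). Rps21 and Rps7 differed by 7.10 nt with the same order in 7 of 8 (exact permutation test, adjusted p = 0.20), and Rps14 and Rps19 by 4.18 nt in 7 of 8 (adjusted p = 0.30, exact permutation test). The SD between members was 7.10 nt, against a median SD of 2.91 nt between the libraries of a group.

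**Figure D1:**
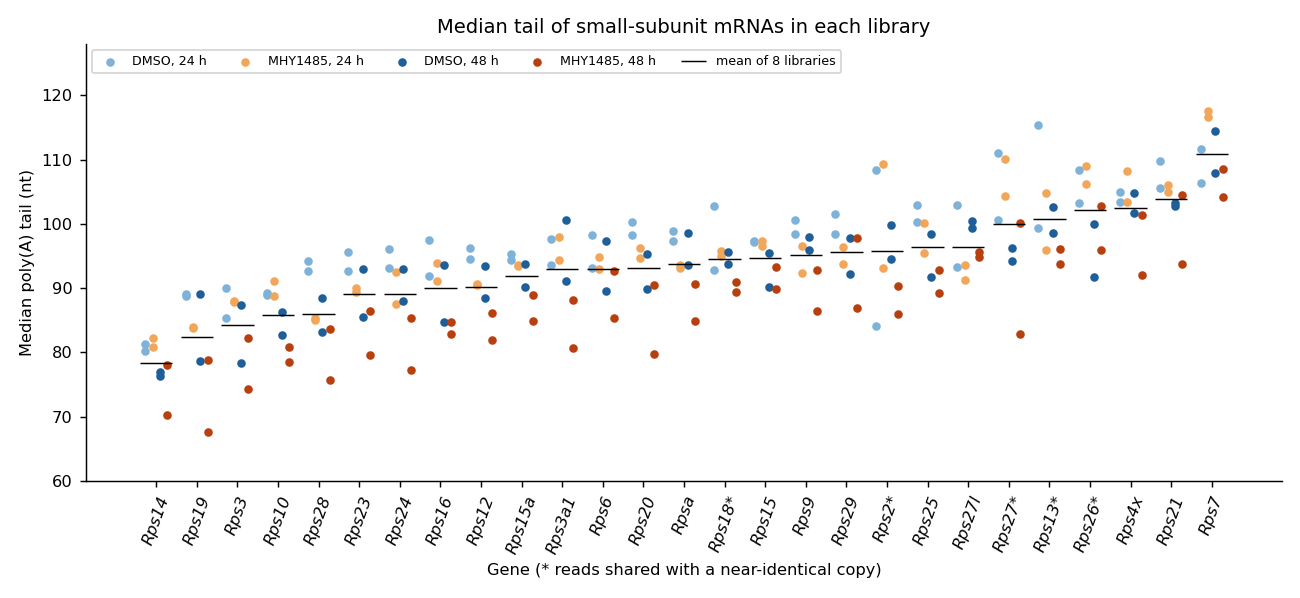
Median poly(A) tail (vertical axis, nt) of each of the 27 genes in each of the 8 libraries (points, coloured by group) with the mean of the 8 libraries (black line). Genes run from Rps14 at 78.3 nt to Rps7 at 110.9 nt, and the points of adjacent genes overlap.

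The share of reads with a tail under 30 nt, a class of very short tails named in the study's methods, followed part of this order. As the mean of the 8 library shares it was highest for Rps14 with 5.84% ± 1.37 (SD, n = 8), Rps19 with 5.64% ± 2.75 and Rps3 with 5.20% ± 1.77. It was lowest for Rps21 with 0.675% ± 0.704, Rpsa with 0.682% ± 0.387 and Rps20 with 0.855% ± 0.474. The order within these trios is that of the means alone: with MHY1485 at 48 h the mean share of Rps19 (9.19% ± 3.94, SD, n = 2) was above that of Rps14 (7.82% ± 1.25), and that of Rps21 (1.79% ± 0.28) above those of Rpsa (1.28% ± 0.13) and Rps20 (1.38% ± 0.64). With the 8 libraries pooled it was 5.82% of 7761 Rps14 reads and 0.683% of 7758 Rps21 reads, with 95% Wilson intervals of 5.32% to 6.37% and 0.523% to 0.892%, which cover counting error only. Pooled in the same way Rps19 had 5.92% of 7919 reads, with an interval that overlaps that of Rps14. Rpsa had a median tail in the middle of the order, 93.8 nt, and few short tails, so the median and the short class do not rank the genes alike. The share of 30 to 90 nt tails, the class called ~60 nt in the study, was highest for Rps14 (52.6%), Rps19 (50.5%) and Rps28 (50.4%), and lowest for Rps7 (33.5%), Rps21 (36.8%) and Rps4x (38.4%).

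Proteins of the head of the subunit and the rest were compared as a description, with a grouping chosen after the values were seen. The 11 head members had a median of 90.3 nt (82.5 to 96.4 nt) and the other 16 a median of 95.4 nt (78.3 to 110.9 nt). The median head member was shorter in 8 of 8 libraries, with reads as the aligner split them between near-identical loci. With the reads of such copies added, Rps13, Rps26 and Rps27, outside the head set, went from 100.8, 102.2 and 99.9 nt to 87.7, 94.1 and 93.3 nt. Rps18, in the head set, went from 94.5 to 86.2 nt, and Rps2 from 95.7 to 96.2 nt. The head comparison was not repeated with these reads, and their part in the gap was not tested. The ranges overlap, and Rps14, the shortest, is not a head protein.

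Features of the annotated gene models went with the tail length weakly or not at all. As the reads of several genes ended well before the annotated end (by 4692 nt in Rps15a), the lengths used are not always those of the molecules read. The values for transcript and 3′ UTR length therefore cannot decide whether the lengths read go with the tail. Over 27 genes Spearman's rho with the mean median tail was -0.24 for transcript length, -0.11 for coding length and -0.02 for annotated 3′ UTR length, and over 24 genes 0.01 for the length of the pyrimidine tract. For reads per 10000 it was -0.58 over the 27, and -0.39 over the 22 without a near-identical copy. These are descriptions across genes, which are not replicates, and tail and read number come from the same reads.

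Most of the 27 had shorter tails than the median gene of their library. In limma over all 8 libraries, 19 of 27 were below the median of 1949 genes tested and 3 above it at an adjusted p under 0.05, where 20% of all genes tested were below and 20.6% above. The lowest were Rps14 at -22.0 ± 0.7 nt (SE, limma adjusted p = 9.71e-26), Rps19 at -17.5 ± 1.1 nt and Rps3 at -16.0 ± 0.9 nt. Above it lay Rps7 at 10.7 ± 1.7 nt, Rps21 at 3.51 ± 0.80 nt and Rps4x at 2.51 ± 0.93 nt (limma adjusted p = 0.028). Rps2, Rps13, Rps26, Rps27 and Rps27l passed in neither direction, and the 4 of these other than Rps27l share reads with a near-identical gene. The median member was at -6.10 nt, and the median of all genes tested at 0.18 nt. With only reads that covered at least 90% of their annotated transcript, 8 members were called below, of the 14 that had enough such reads to be tested, and the median member was at -3.10 nt. It was at -4.02 nt over the 26 members tested when at least 30 reads were required.

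The large-subunit mRNAs stood lower still, with 38 of 48 called below and a median of -7.59 nt. Of 7 further small-subunit genes, 7 were called below, with a median of -13.3 nt, among them Rps27a, made as a fusion with ubiquitin, at -9.99 nt, and Rack1, the scaffold on the head, at -5.32 nt.

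Some of the 27 share their sequence with another transcribed locus, and the split of reads between them moved the tail values. Transcripts at least 95% identical over at least 60% of the member's length with at least 100 reads were found for 5 members. Rps2 kept 321 reads and its copy Rps2-ps10 held 17500, 98.2% of both, and the low level of Rps2 above is the level of the reads that the aligner gave to it. With the reads of its copies Rps2 had 17961, more than any other member (Rps12 12578), in place of the lowest number. Rps27 kept 1475 against 5540 for Rps27rt, and Rps26 2206 against 6599 for Rps26-ps1. Rps13 kept 3774 against 2348 for Rps13-ps1, and Rps18 6297 against 3309 for Gm10260 and 198 for Gm11361. A mapping quality of at least 10 was reached by 6.26% of the alignments to Rps18, 15.4% of those to Rps27, 21.5% of those to Rps26, 26.3% of those to Rps13 and 40.8% of those to Rps2, against 74.3% over all 27 genes. Of the copies, Rps2-ps10 reached it in 82.5% and Rps26-ps1 in 69.9%, while Rps27rt (15.04%), Gm10260 (14.7%), Rps13-ps1 (5.15%) and Gm11361 (4.54%) were low. It was also low for Rps14 (1.02%), for which no near-identical copy with reads was found and whose main transcripts overlap at the same locus. Rps7 was low as well (11.8%), and its near-identical copies held few reads (18 for Gm6472 and 2 for Gm7285).

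Reads given to the member had longer tails than reads given to its copy. For Rps13 the 8 library medians averaged 100.8 ± 6.9 nt (SD) against 70.1 ± 7.0 nt for Rps13-ps1, longer in 8 of 8 libraries by 30.7 nt. For Rps18 and Gm10260 they were 94.5 ± 4.0 and 73.2 ± 5.5 nt, 8 of 8. For Rps26 and Rps26-ps1 they were 102.2 ± 6.0 and 91.9 ± 5.2 nt, 8 of 8. Each of these 3 had an exact two-sided sign-flip permutation p of 0.0078, the smallest that 8 libraries allow, and an adjusted p of 0.016 over 6 pairs. Rps27 and Rps27rt had 99.9 ± 9.1 and 90.4 ± 3.1 nt, longer in 7 of 8 (exact permutation test, adjusted p = 0.023). Rps2 and Rps2-ps10 did not differ beyond their spread, with 95.7 ± 9.5 and 96.3 ± 3.9 nt (exact permutation test, adjusted p = 0.87), nor did Rps18 and Gm11361, with 94.5 and 87.6 nt (adjusted p = 0.17, exact permutation test).

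The ends of the annotated sequences are shown because they differ where the tail begins. For each pair the last 30 annotated bases are given, with the AATAAA of the member and the longest A run of the copy in capitals.
Rps13 (chr7:116331505-116331534, minus strand): caagcAATAAAatcactttgagtaacttgg
Rps13-ps1 (chr8:87048197-87048226, plus strand): ataaaatcactttgagtAAAAAAAAAAAAA
Rps18 (chr17:33951999-33952028, minus strand): gctgttAATAAAtagtttatatacctatga
Gm10260 (chr13:97760072-97760101, minus strand): gtttatatacctatggAAAAAAAAAAgaaa
Rps26 (chr10:128624537-128624566, minus strand): cctggaaaAATAAAatggaagttgtacttt
Rps26-ps1 (chr8:107439131-107439160, minus strand): gttgtactttAAAAAAAAAAAAAAAAAAAA
The copies are single-exon transcripts that carry a run of A in the reference itself, of 13, 10 and 20 nt in these 3, 31 nt in Rps27rt, 29 nt in Rps2-ps10 and 3 nt in Gm11361. The members have runs of at most 5 nt in their last 40 bases, and 2.15% of 2469 transcripts with at least 100 reads have a run of at least 10 nt there. Whether the run of A decides which reads are given to the copy was not tested.

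**Figure D2:**
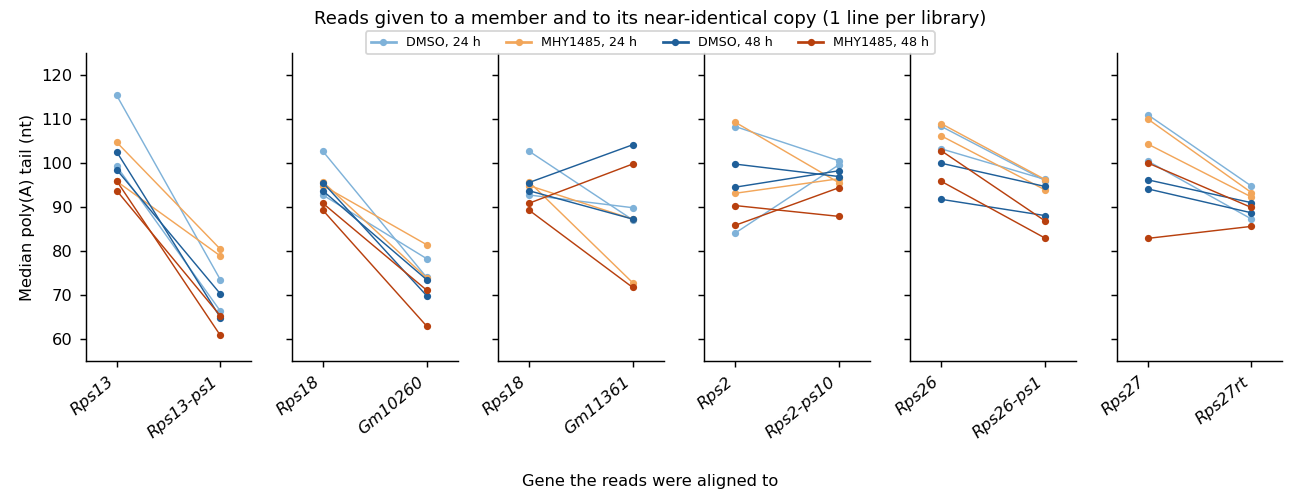
Median poly(A) tail (vertical axis, nt) of the reads aligned to a member (left point) and to its near-identical copy (right point), with 1 line per library and colours for the 4 groups. The lines fall in all 8 libraries for Rps13, for Rps18 with Gm10260 and for Rps26, in 7 for Rps27, and cross for Rps2.

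With the reads of the copies added to the members, an alternative chosen after seeing the data, Rps13 had a median of 87.7 nt and Rps18 one of 86.2 nt. In the order of the 27 Rps13 moved from place 23 to place 7 and Rps18 from place 15 to place 6, while Rps14, Rps19, Rps3 and Rps10 kept places 1 to 4 and Rps4x, Rps21 and Rps7 places 25 to 27. With copies added 23 of 27 were called below the median gene. In the fit without the copies 19 were, where 20% of all genes tested were called below.

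Transcript isoforms with at least 5% of the reads of a gene gave 12 pairs, none with an adjusted p under 0.05 by the exact permutation test, in which a lone pair with the same order in 8 of 8 libraries cannot pass. Rps24, whose isoforms differ in the last codons of the protein, had 51.98% of its alignments on ENSMUST00000225023 and 45.2% on ENSMUST00000169826, with 89.2 and 89.4 nt (exact two-sided sign-flip permutation test, adjusted p = 0.94 over 12 isoform pairs). Rps28 had 86.1 and 85.5 nt on its 2 main transcripts (exact permutation test, adjusted p = 0.92). The widest difference was in Rps7, with 113.3 nt on ENSMUST00000074267 (1562 reads) and 86.9 nt on ENSMUST00000221871 (95 reads), longer in 8 of 8 libraries (exact permutation test, adjusted p = 0.094).

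The treatment comparison asks whether activating mTOR moves these mRNAs into the short-tail classes or changes their number. At 48 h the share of tails under 30 nt was estimated higher with MHY1485 for 27 of 27 members, with a median change of 1.11 in log2 odds (1.11 also with Rps2 at its bound), against 0.41 over 1949 genes tested, of which 66.5% were estimated higher. It rose in 4 members at an adjusted p under 0.05 in limma, where 0.359% of all genes tested were called higher. In 21 of 27 both MHY libraries were above both DMSO libraries, where 26.1% of all genes tested showed this. Over the 27 together the share was 2.34% and 1.83% in DMSO libraries 24 and 25, and 4.54% and 3.47% in MHY libraries 24 and 25. It was 2.74%, 2.15%, 4.39% and 3.36% for the 48 large-subunit mRNAs and 2.97%, 2.78%, 4.47% and 3.37% for all other genes in the same order, so short tails were more frequent with MHY1485 outside the ribosome as well.

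The 4 genes were Rpsa, Rps9, Rps16 and Rps21. For Rpsa the share in DMSO libraries 24 and 25 and MHY libraries 24 and 25 was 0.450%, 0.520%, 1.37% and 1.19%, a change of 1.35 ± 0.18 in log2 odds (SE, limma adjusted p = 0.029). For Rps9, beside the mRNA entry, it was 1.25%, 0.986%, 2.59% and 2.88%, a change of 1.304 ± 0.175 (limma adjusted p = 0.029). For Rps16, whose tail reaches the peptidyl site, it was 2.27%, 2.30%, 4.43% and 5.50%, a change of 1.11 ± 0.14 (limma adjusted p = 0.029). For Rps21 it was 0.349%, 0.366%, 1.99% and 1.60%, a change of 2.22 ± 0.33 (limma adjusted p = 0.031). With reads over most of the transcript, which left 14 members to test, the change of Rps21 was -0.20 and Rps9 alone passed (1.31). In each of the 4 the groups did not overlap. Without DMSO library 25, MHY library 24 or MHY library 25 the count of called members was 0, without DMSO library 24 it was 1, and with tails under 20 nt or without weights it was 0.

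Rps19 had 4.05% and 3.95% in DMSO and 11.98% and 6.41% in MHY1485 libraries 24 and 25, and did not pass (1.31 ± 0.30, limma adjusted p = 0.13). Rps2 had no such read among 103 in the DMSO libraries at 48 h, which allows a share of up to 2.91%, and 4 of 75 (5.33%) with MHY1485. Within both sequencing runs at 48 h, each of which held all 4 libraries, the share was higher with MHY1485 in 26 of 27 genes, and in 25 genes in both. The runs read the same libraries and are not replicates. Within runs no share over all genes was computed, and in the fit of both runs together 66.5% of all genes tested were estimated higher.

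**Figure D3:**
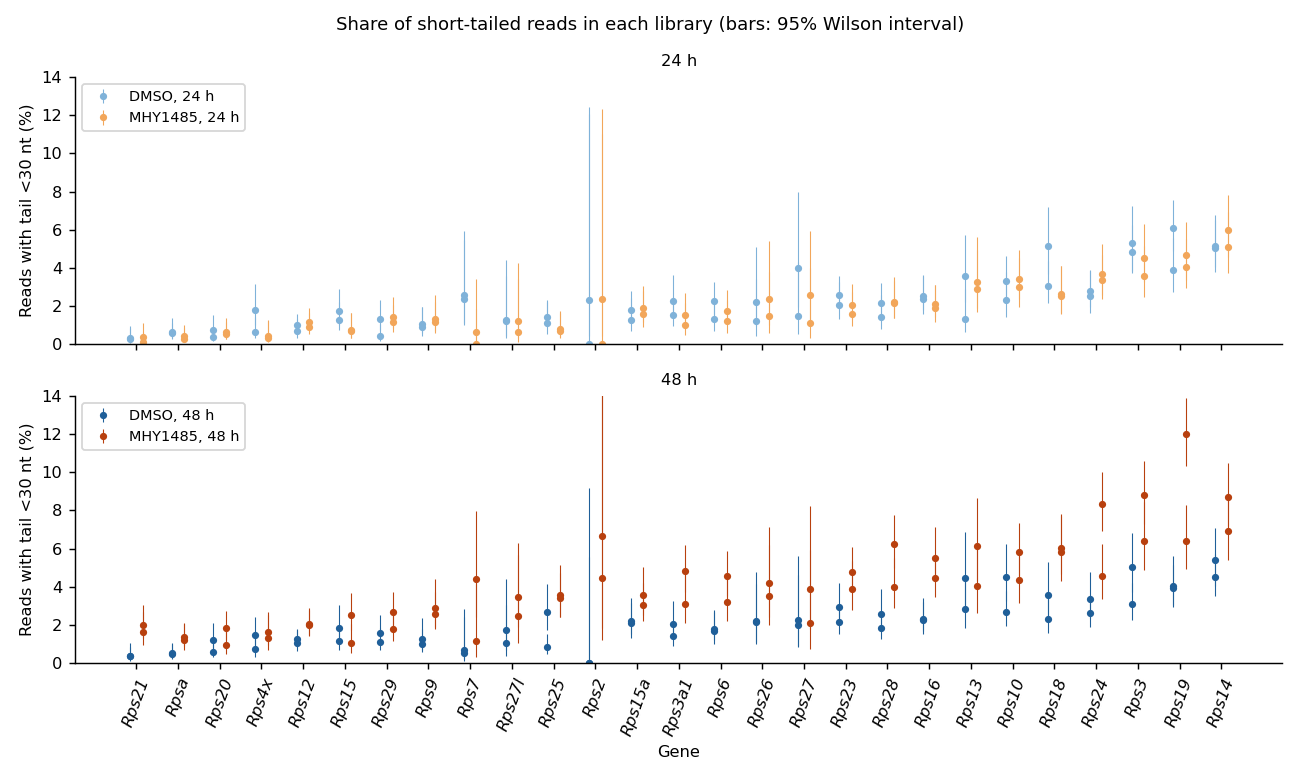
Percent of reads with a tail under 30 nt (vertical axis) for each gene, with 1 point per library and 95% Wilson intervals of the counts, DMSO against MHY1485 at 24 h (top) and 48 h (bottom). At 48 h the MHY1485 libraries lie above the DMSO libraries in 21 of 27 genes, and the intervals of Rps2 run beyond the axis.

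At 24 h none of the 27 passed in the share under 30 nt, and 0% of all genes tested did in either direction (limma, 4 members lower and 0 higher at an unadjusted p under 0.05, where 62 and 48 of the 1949 genes tested were). Of the estimates 16 were lower and 11 higher. Both MHY libraries were below both DMSO libraries in 10 of 27 members, where 14.2% of all genes tested showed this, and above them in 3, where 7.8% did. The lowest p belonged to Rps7, with 2.59% and 2.39% in DMSO libraries 21 and 23 and 0% and 0.617% in MHY libraries 21 and 23, where 0 of 206 reads allows a share of up to 1.46%, a change of -2.68 ± 0.68 in log2 odds (limma adjusted p = 0.67). The change of Rps7 turned to 0.29 at a mapping quality of at least 10 and to 0.12 for tails under 20 nt. Rpsa had 0.630%, 0.573%, 0.441% and 0.281%, and Rps4x 1.77%, 0.663%, 0.409% and 0.344%.

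The 48 h effect minus the 24 h effect on this share was positive for 26 of 27 members, with a median of 1.24 in log2 odds (0.48 over all genes tested, of which 63.5% were positive). No member passed, nor did any gene (0%), and 17 members had an unadjusted p under 0.05 in limma, as did 147 of the 1949 genes tested in that direction. The lowest adjusted p in limma were those of Rpsa (2.01 ± 0.26, adjusted p = 0.067) and Rps16 (1.41 ± 0.21, adjusted p = 0.069), followed by Rps21 (2.62 ± 0.49, adjusted p = 0.17). With a mapping quality of at least 10, 2 members passed.

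**Figure D4:**
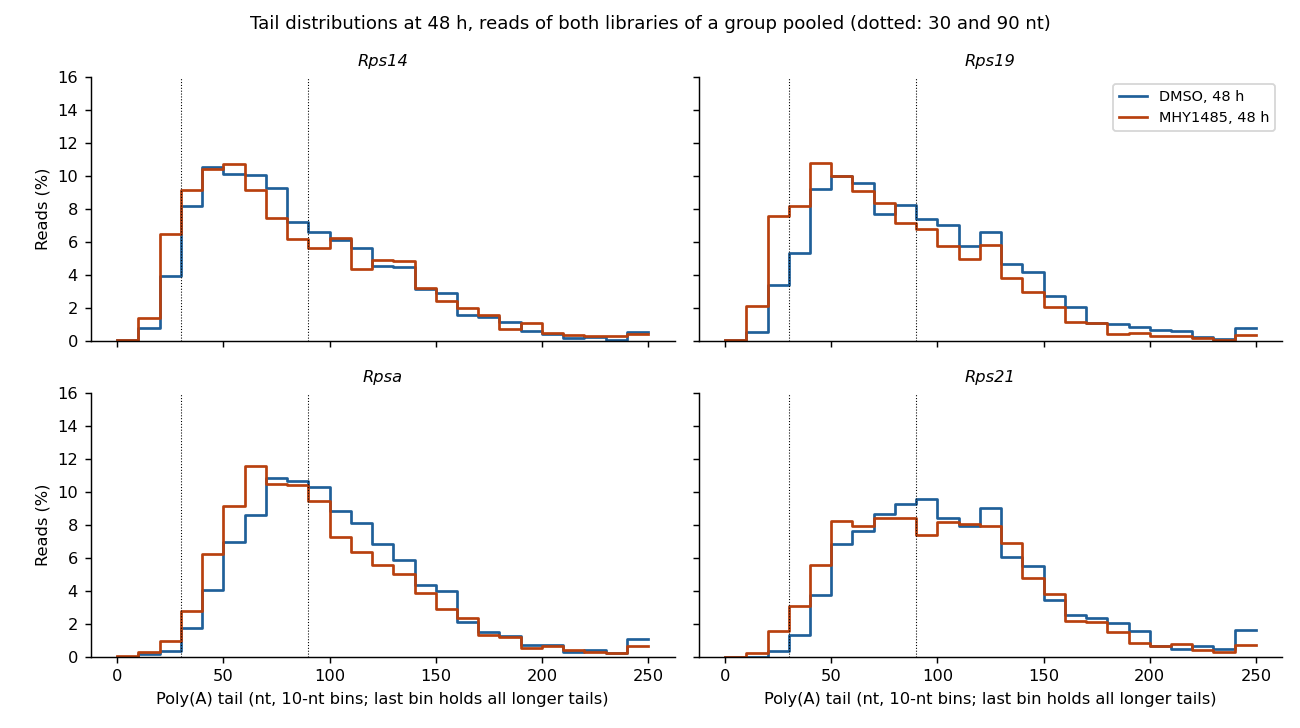
Percent of reads (vertical axis) in 10-nt bins of tail length (horizontal axis, nt) at 48 h for Rps14, Rps19, Rpsa and Rps21, reads of both libraries of a group pooled, with dotted lines at 30 and 90 nt. In Rps14 and Rps19 the MHY1485 line stands above the DMSO line under 30 nt, and in Rpsa and Rps21 most of the added reads lie between 30 and 60 nt.

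In the class of 30 to 90 nt, 24 of 27 estimates were higher with MHY1485 at 48 h and 22 of 27 at 24 h, where 55.2% and 54.4% of all genes tested were. The median changes were 0.18 and 0.17 in log2 odds, against 0.05 over all genes tested at both times. The median at 24 h was 0.09 without DMSO library 23 and 0.20 without MHY library 23. At 48 h it rose in Rpsa, with 45.6% and 41.1% in DMSO libraries 24 and 25 and 52.7% and 47.98% in the MHY libraries, a change of 0.46 ± 0.09 in log2 odds (limma adjusted p = 0.016, where 0.257% of all genes tested were called higher). The groups of Rpsa did not overlap, as in 7 of 27 members and 17.6% of all genes tested. Rps12 (0.31 ± 0.08) and Rps3a1 (0.40 ± 0.11), the platform protein eS1, had the next lowest p and did not pass, and with reads over most of the transcript Rps12 had -0.39. Without DMSO library 21, 23 or 25 or MHY library 24 no member passed, without MHY library 21 there were 2, without MHY library 23 or DMSO library 24 there were 4, and without MHY library 25 there were 8, where 1.81% of all genes tested were called in either direction. The median at 48 h was 0.09 without DMSO library 25 or MHY library 24, and 0.27 without DMSO library 24 or MHY library 25.

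At 24 h no member passed in this class (0% of all genes tested, limma), with 6 higher at an unadjusted p under 0.05, as were 71 of the 1949 genes tested. The lowest p was in Rps28, with 45.7% and 44.9% in DMSO and 52.4% and 51.2% in MHY libraries 21 and 23 (0.38 ± 0.11, limma adjusted p = 0.34). It was followed by Rpsa (0.27 ± 0.10) and Rps19 (0.31 ± 0.12), which had -0.41 with reads over most of the transcript. In 13 of 27 members both MHY libraries were above both DMSO libraries at 24 h, where 17.9% of all genes tested showed this. The difference of the effects at 48 h and 24 h did not pass for any member (0% of all genes tested), and 1 was above 0 at an unadjusted p under 0.05 in limma, as were 35 of the 1949 genes tested: Rps3a1 (0.37 ± 0.16, and -0.26 with reads over most of the transcript), followed by Rps28 (-0.26 ± 0.15) and Rps20 (0.26 ± 0.15).

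The median tail fell in 5 members at 48 h, where 0.872% of all genes tested were called lower. Rps3a1 had 91.0 and 100.6 nt in DMSO libraries 24 and 25 and 80.7 and 88.1 nt in the MHY libraries, and fell by 13.3 ± 2.6 nt (SE, limma adjusted p = 0.0075). Rps19 had 78.6, 89.0, 67.6 and 78.8 nt in the same order, a fitted change of -12.9 ± 2.7 nt (limma adjusted p = 0.0096), and its groups overlap. Rps24 had 88.1, 93.0, 77.3 and 85.4 nt (-10.6 ± 2.4 nt, limma adjusted p = 0.017). Rpsa had 93.5, 98.5, 84.9 and 90.7 nt (-9.22 ± 2.07 nt, limma adjusted p = 0.017). Rps12 had 88.5, 93.5, 81.9 and 86.1 nt (-7.80 ± 1.82 nt, limma adjusted p = 0.0235). With reads over most of the transcript Rps12 turned to 15.6 nt and Rps19 to 10.3 nt, and of the 14 members left to test Rps24 alone passed (-14.6 nt).

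Of the 27 estimates 26 were below 0, with a median of -5.89 nt against -3.01 nt over all genes tested. In 13 of 27 both MHY libraries were below both DMSO libraries, where 21.8% of all genes tested showed this. Each called gene was lower in MHY library 24 than in any other, the library with the lowest median over all reads, whose part in these changes was not tested. Without it, or without DMSO library 25, or without weights, the count was 0, and without DMSO library 24 or MHY library 25 it was 10, where 2.06% and 1.96% of all genes tested were called in either direction. The median of the 27 changes was -3.44 nt without MHY library 24, -3.97 nt without DMSO library 25, -7.59 nt without DMSO library 24 and -8.82 nt without MHY library 25. At 24 h no member passed (0% of all genes tested, limma) and 3 were lower at an unadjusted p under 0.05 (39 of the 1949 genes tested were), led by Rps28 with 92.6 and 94.2 nt in DMSO and 85.4 and 85.1 nt in MHY1485 (-8.27 ± 2.60 nt, limma adjusted p = 0.95), then Rps12 (-4.62 ± 2.02 nt) and Rpsa (-4.51 ± 2.21 nt). The later effect minus the earlier passed in no member (0% of all genes tested) and 2 were below 0 at an unadjusted p under 0.05 in limma, as were 64 of the 1949 genes tested: Rps3a1 (-13.3 ± 3.9 nt) and Rps4x (-9.57 ± 3.94 nt), followed by Rps19 (-7.76 ± 3.97 nt).

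The number of reads was lower with MHY1485 at 48 h for 27 of 27 estimates, with a median of -0.24 in log2 against -0.02 over 4115 genes tested. With the library totals as size factors the medians were -0.13 and 0.10, and 27 of 27 estimates were again lower. In reads per 10000 the group mean was lower for 26, and Rps15a had 38.0 ± 3.3 (SD, n = 2) in DMSO and 38.2 ± 1.8 in MHY1485. Fewer molecules per cell and fewer cells of a type cannot be told apart in these bulk samples. Rps27, a zinc-finger protein, fell in limma voom, where 1.31% of all genes tested were called lower: it had 8.38 and 7.87 reads per 10000 in DMSO libraries 24 and 25 and 4.65 and 7.19 in MHY libraries 24 and 25, and fell by 0.62 ± 0.16 on the log2 scale (limma adjusted p = 0.0098). These are the reads given to Rps27 and not to Rps27rt. With a mapping quality of at least 10, without DMSO library 25 or without MHY library 24, no member passed, and without MHY library 25 there were 11, where 3.60% of all genes tested were called in either direction. The median of the 27 changes was -0.14 without MHY library 24 and -0.30 without DMSO library 24.

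The next lowest p belonged to Rps20, with 46.2, 51.5, 40.3 and 45.4 reads per 10000 (-0.32 ± 0.10, limma adjusted p = 0.052), and Rps4x, with 32.8, 34.1, 27.99 and 28.96 (-0.35 ± 0.11, adjusted p = 0.059 in limma). In 15 of 27 both MHY libraries were below both DMSO libraries, where 14.5% of all genes tested showed this, and 16 had an unadjusted p under 0.05, as did 298 of the 4115 genes tested in that direction. All 27 together were 9.25% and 9.64% of reads in the DMSO and 8.49% and 9.06% in the MHY libraries at 48 h, and the large-subunit mRNAs 18.01%, 18.95%, 16.7% and 17.7% in the same order. With a filter of at least 1 read in 1 library 14 members passed, where 1.12% of 13120 genes tested were called in either direction. Of the cell markers, 4 of 8 tested pluripotent ones were estimated higher at 48 h (median -0.08) and their summed level overlapped, 38.8 to 40.8 reads per 10000 in DMSO and 36.5 to 40.9 in MHY1485, as did that of the mesoderm or endoderm markers, 0.749 to 2.50 and 0.642 to 2.10. The summed level of the neural markers did not overlap, with 3.096 to 3.14 in DMSO and 2.34 to 2.73 in MHY1485, mostly Stmn2 (-0.67 ± 0.22 in log2 read count, limma adjusted p = 0.085). That of the fibroblast markers was 0.0936 to 0.0948 and 0.0642 to 0.0934. A single marker was called in the pluripotent and in the mesoderm or endoderm list: T, of mesoderm, had a change of -1.19 ± 0.30 and Tdgf1, of pluripotent cells, of -0.997 ± 0.213 in log2 read count (limma adjusted p = 0.0089 and 0.00068), and the part of these lists in the values of the 27 genes was not tested.

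At 24 h 12 of 27 estimates were higher and 15 lower (47.3% and 52.7% of all genes tested were), none passed (0% of all genes tested were called lower, limma voom) and 1 was lower at an unadjusted p under 0.05, as were 93 of the 4115 genes tested. This was Rps14, with 43.5 and 44.4 reads per 10000 in DMSO and 36.5 and 41.8 in MHY1485. Rps3a1 (-0.19 ± 0.11) and Rps6 (-0.13 ± 0.11) came next. The difference of the effects at 48 h and 24 h was below 0 for 27 of 27 and passed in none (0.292% of all genes tested were called lower), with 7 at an unadjusted p under 0.05, as were 161 of the 4115 genes tested. Rps27 had the lowest adjusted p, 0.095 (-0.77 ± 0.22, limma), followed by Rps20 (-0.34 ± 0.14) and Rps16 (-0.31 ± 0.14).

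**Figure D5:**
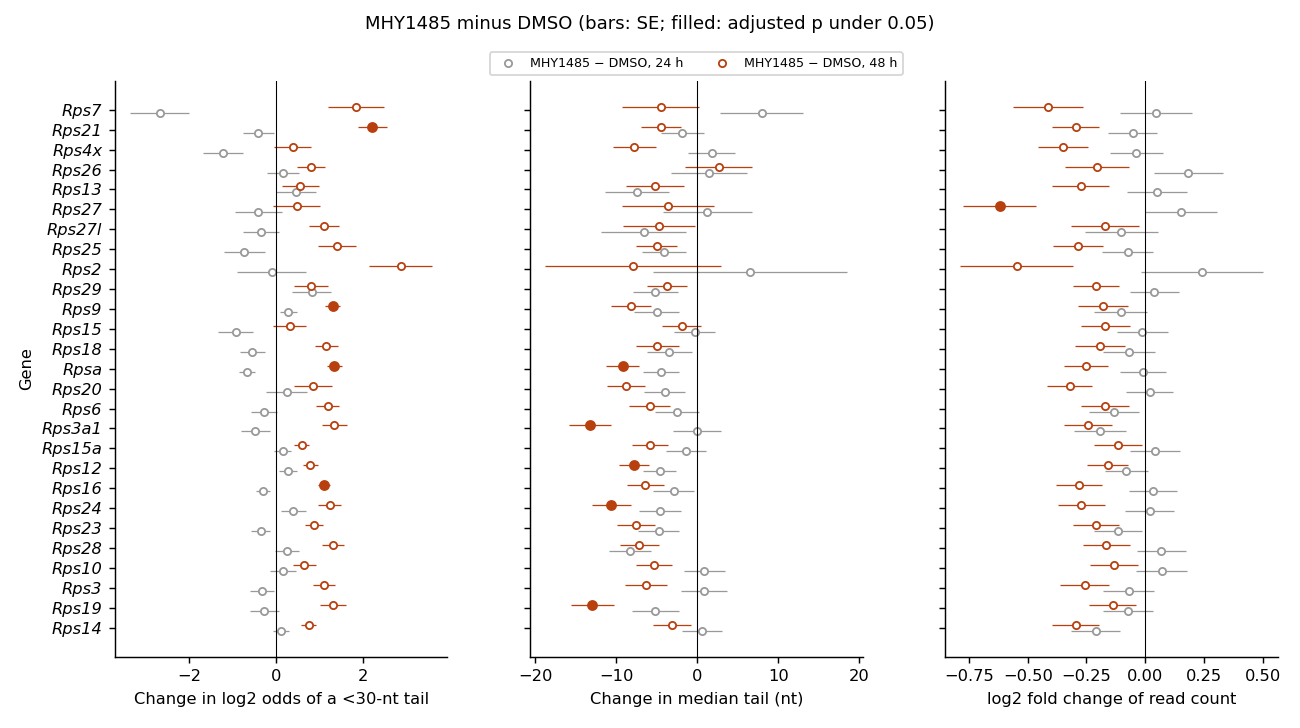
Fitted change with MHY1485 (MHY1485 minus DMSO, bars SE) at 24 h (grey) and 48 h (red) in the log2 odds of a tail under 30 nt, the median tail in nt and the log2 read count, genes ordered by median tail with Rps7 at the top. Filled points passed an adjusted p of 0.05, which 4, 5 and 1 genes did at 48 h and none at 24 h; the value of Rps2 in the left panel depends on the prior of 0.5 reads.

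The other lists were read the same way. Of 48 large-subunit mRNAs 47 were estimated higher in the share under 30 nt at 48 h, with a median of 0.76 in log2 odds and 2 called, all 48 were lower in median tail with 7 called, and all 48 were lower in read number with 4 called and a median of -0.25 in log2. Of all genes tested 66.5%, 61.8% and 51.5% were estimated in these directions, and 0.359%, 0.872% and 1.31% were called. The 7 further small-subunit genes were all higher in the share under 30 nt, with none called and a median of 0.58, and Rps27a had a change of -8.04 ± 1.97 nt in median tail (limma adjusted p = 0.039). Among 25 tested genes of small-subunit assembly, 18 were estimated higher in read number at 48 h with a median of 0.26, where 48.5% of all genes tested were estimated higher and 0.413% called higher, and Nop56, a core protein of box C/D particles, rose by 0.63 ± 0.18 in log2 (limma adjusted p = 0.029), with 1.04 ± 0.27 for its 48 h minus 24 h effect (limma adjusted p = 0.037), a difference called higher in 0.0486% of all genes tested. Nop58 (0.57), Emg1 (0.13), Fbl (-0.15) and Snu13 (-0.24) did not pass. Of 9 tested genes of mTOR, LARP1 and poly(A)-binding proteins none passed in read number at 48 h (limma voom), with Pabpc1 at -0.43 ± 0.15 and Eif4ebp1, which binds the cap-binding protein when mTOR is off, at 0.38 ± 0.17.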

How the data were processed

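Direct RNA libraries of P19 cells were read on nanopore flow cells, with 4 barcoded libraries pooled per time point in 3 runs at 24 h and 2 at 48 h. The authors aligned reads to GENCODE vM17 transcripts on mm10 with minimap2 2.20 per the labels, measured each tail by Nanopolish, and separated the barcodes by Deeplexicon. The deposited table has 2439710 alignments, each with a tail length in nt, a mapping quality score and a barcode confidence as a fraction, and neither was used as a filter except in alternatives. Kept were 83.1% of alignments with a passing tail call, of the mRNA class, without 12169 reads of pseudogenes and 66955 mitochondrial ones, counted once per gene. Reads of all transcripts of a gene were summed.

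Shares of tails (log2 odds with 0.5 reads added) and median tails, weighted by reads, were fitted over genes with at least 10 reads in each library, and read counts with limma voom (limma 3.58.1, R 4.3.3) in genes with at least 10 reads in 2 libraries, with all 8 libraries in 1 model and Benjamini-Hochberg adjustment over all genes. Reads were counted from the lines of the table, which has no count column, and a log-scale fit was used in place of the count model of the study. Libraries were put in groups by the condition the table gives, and which of the 2 labelled replicates a library is was not known; a block in the alternatives is on the library numbers of the table. Per-gene orders were compared by exact sign-flip permutation tests (scipy 1.17.1). Copies were found with minimap2 2.31 among GENCODE vM21 transcripts. The fits were tested on simulated data whose changes were larger than the treatment changes reported here. That test does not cover changes of the reported size. Depth was 178359 to 316531 reads per library. Wilson intervals at 95% and limits for 0 reads (3 reads of the total) cover counting error only. Alternatives changed the mapping quality, barcode confidence, class bounds, filters, weights, scaling and libraries. Named in full were the 3 lowest and 3 highest members per measure and, per contrast, each called member or, with fewer than 3, those with the lowest p. The members and lists were chosen with earlier results of these data known.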

Additional observations from a re-analysis of the deposited data

Results flagged for a closer look

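The change of Nop56 in log2 read count with MHY1485 was different at 48 h and 24 h by the test of the difference itself, at 1.04 ± 0.27 for the 48 h minus 24 h effect (limma voom adjusted p = 0.037). Of the 27 members none passed that test in any measure (limma, 17 at an unadjusted p under 0.05 for tails under 30 nt, 1 for tails of 30 to 90 nt, 2 for the median tail and 7 for the read count). Over all genes tested, 147, 35 and 64 of 1949 and 161 of 4115 were at that level in the same directions. With 2 libraries in each group, no library could be tested as an outlier.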

How the results depend on the processing

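Over genes, the deviations of same-numbered libraries had correlations of -0.02 to 0.05, which cannot show a shift shared by all genes of a library. In DMSO libraries 24 and 25 the reads of all members together had a median tail of 89.6 and 94.6 nt. In MHY libraries 24 and 25 it was 83.0 and 89.3 nt. In DMSO libraries 21 and 23 it was 95.7 and 97.0 nt, and in MHY libraries 21 and 23 93.2 and 94.2 nt. Their share under 30 nt had a shared order at 48 h but not at 24 h. Whether the numbers pair the samples was not decided. With the replicate block, fitted on the library numbers of the table, members called at 48 h were 7 for the share under 30 nt, 1 for the ~60-nt share, 6 for the median tail and 8 for read number, and 3 for the 48 h minus 24 h difference of the share under 30 nt, where 0.821%, 0.410%, 1.08%, 2.24% and 0.308% of all genes tested were called in either direction; the pairing is only a shared number.

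Leaving out 1 library at a time, the counts called at 48 h ranged from 0 to 4 (share under 30 nt), 0 to 8 (~60-nt share), 0 to 10 (median tail) and 0 to 11 (read number), and from 0 to 2 for the difference of the share under 30 nt and for neighbours in the same order in every library left. It was 19 throughout for members below the median gene, and 0 throughout for the 24 h comparisons and the difference of the ~60-nt share.

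Counts that moved under other settings, with the count as reported in brackets, were as follows. The share under 30 nt at 48 h (4) had 0 with tails under 20 nt, 0 without weights, 1 with the libraries of 48 h alone and 1 with reads over most of the transcript. Its difference between times (0) had 2 at a mapping quality of at least 10 and 1 at 30 reads. The ~60-nt share at 48 h (1) had 0 at that mapping quality, without weights, with 48 h alone and with reads over most of the transcript, and 2 with the most-read transcript or with copies added. The median tail at 48 h (5) had 0 without weights and with 48 h alone, and 1 with reads over most of the transcript. The read count at 48 h (1) had 0 at mapping quality 10 and 14 at 1 read. Members below the median gene (19) were 8 with reads over most of the transcript, which left fewer members to test, and their number rose with copies added. Neighbours in the same order (1) were 0 at mapping quality 10, at barcode confidence 0.75 and with copies added, and 2 with the most-read transcript. The causes were not tested. Adding copies and requiring reads over most of the transcript were chosen after seeing the data.

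Of 33 results on single genes, 492 values under alternatives kept direction and call, 64 no longer passed, 23 newly passed and 8 reversed. Rps7 reversed in the share under 30 nt at 24 h (0.29 in log2 odds at mapping quality 10, 0.12 for tails under 20 nt). With reads over most of the transcript Rps21 had -0.20 (share under 30 nt, 48 h), Rps19 -0.41 (~60-nt share, 24 h) and 10.3 nt (median, 48 h), Rps12 -0.39 (~60-nt share, 48 h) and 15.6 nt (median, 48 h), and Rps3a1 -0.26 (~60-nt share, difference of times). Depth limits Rps2, with 27 to 65 reads per library.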
